A study of Mus musculus with 48 samples.

Results

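At day 11 of a course of imiquimod on mouse ear skin, Langerhans cells of the epidermis were compared with the CD11b dendritic cells (CD11b DC) of the dermis. The comparison rests on 6 of the 48 arrays of the series, 3 per population, chosen by their source labels. Both groups came from mice of 8 to 11 weeks whose ears received 5% imiquimod cream every day, 7 mg per ear side, in a course planned for 14 days. Langerhans cells were sorted as CD11b+MHCII+CD24+ cells of the epidermis, and CD11b DC as CD11b+CD64-Ly-6C-MHCII+CD24- cells of the dermis. No genotype or strain is given in the labels, and both groups carry the same treatment. RNA of 1 to 20 ng went through 2 rounds of amplification before hybridisation to Affymetrix mouse gene arrays. The same populations from untreated skin and from day 5, with 3 arrays in each group, served as background. Whether the replicates are separate animals is not given, and the p-values therefore reflect sample-to-sample spread that may be technical. The split ears were digested with dispase at different temperatures, and the one used for each sample is not given.

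Langerhans cells are the phagocytes of the epidermis. They seed it from embryonic precursors, renew themselves locally, depend on CSF1R and TGF-beta signals, hold on to keratinocytes through E-cadherin, and carry the lectin langerin (Cd207), which forms Birbeck granules. Dermal CD11b DC are the main conventional dendritic cells of the dermis. They come from bone marrow precursors, carry the C-type lectins CD206, CD301b and CD209a, and migrate to draining lymph nodes to present antigen to CD4 T cells. Imiquimod is an agonist of Toll-like receptor 7, and repeated application gives mouse skin a psoriasis-like inflammation in which dermal phagocytes and gamma-delta T cells supply IL-1, IL-6, IL-23 and IL-17.

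All values are log2 expression values, so a difference of 1 is a 2-fold difference. A difference is the Langerhans cell mean minus the CD11b DC mean ± SE from a limma fit across 15591 genes, with n = 3 arrays in each population. "Higher" and "lower" refer to Langerhans cells and are used of genes past a Benjamini-Hochberg adjusted p of 0.05. Array values are listed in the order of replicates 1, 2 and 3. The filter on low values removed genes not above 3.77 on at least 3 arrays, and a value at or under 3.77 is called near the array's floor.

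The 3 Langerhans cell arrays correlated at 0.971 to 0.985 with each other and the 3 CD11b DC arrays at 0.943 to 0.979, against 0.896 to 0.931 between the populations. Replicate 2 of CD11b DC stood farthest from its group (mean correlation 0.945). Of the 6 arrays it had the highest values of the T cell genes Cd3g (6.86), Cd3d (5.95) and Gzmb (7.15). CD11b DC replicate 1 had the highest Cd207, Mfge8 and Hpgds of its group. Langerhans cell replicates differed among themselves in Lyz2, which read 7.98, 10.75 and 9.56, and in Ccr2, which read 4.16, 6.62 and 5.70. Sample titles at day 11 share their first letter after a common prefix in both populations, and so do those at day 5, whereas untreated Langerhans cells and CD11b DC carry different letters. The meaning of these letters is not given, and a batch that followed them cannot be told apart from population in untreated skin or from day.

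Several markers of the labelled populations separated the 6 arrays by population. Irf4, Flt3 and Zbtb46, also chosen as markers of CD11b DC, overlapped between the populations and did not pass the test. Langerin (Cd207) read 10.75, 10.73 and 10.90 in Langerhans cells and 8.11, 4.85 and 6.03 in CD11b DC, a difference of +4.46 ± 0.47 (adjusted p = 2.92e-09). The groups did not overlap, although CD11b DC replicate 1 lay well above the other CD11b DC arrays. Epcam, an adhesion molecule of epithelia and Langerhans cells, read 9.42, 9.51 and 8.97 against 7.73, 7.18 and 7.25 (+1.91 ± 0.20, adjusted p = 1.53e-09). The dermal lectins went the other way in every array. Cd209a read 7.27, 8.19 and 7.72 in Langerhans cells and 10.20, 10.50 and 10.48 in CD11b DC (-2.66 ± 0.33, adjusted p = 1.11e-07), and Itgam, the gene of CD11b itself, differed by -1.50 ± 0.19 (adjusted p = 1.01e-07). Cd24a, whose protein set the gates apart, differed by +2.03 ± 0.43, which the sort itself fixed.

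Of 35 measured genes of the conventional DC core, 7 were higher in Langerhans cells, 9 lower and 19 did not pass, with a median difference of 0.00. Flt3, the receptor that dendritic cell precursors need, read 8.29, 8.25 and 8.12 in Langerhans cells and 8.57, 8.02 and 8.40 in CD11b DC (-0.11, adjusted p = 0.86). At day 11 Flt3 averaged 7.33 ± 0.06 (SD, n = 3) in moDC, 4.85 ± 0.15 in MHCIIlow macrophages and 5.40 ± 0.26 in MHCIIhigh macrophages. Zbtb46, a transcription factor of conventional dendritic cells, differed by only +0.05, with means of 4.85 and 4.80. In untreated skin Flt3 (-2.50) and Zbtb46 (-0.96) were lower in Langerhans cells. By day 11 these differences had changed by +2.39 (adjusted p = 1.05e-06) and +1.01 (adjusted p = 0.0151) in limma. The macrophage genes Mertk and Fcgr1 lay below their macrophage levels in both populations at day 11. Mertk averaged 3.61 ± 0.10 in Langerhans cells and 3.71 ± 0.09 in CD11b DC against 7.33 ± 0.23 in MHCIIlow macrophages, and Fcgr1, the gene of CD64, averaged 4.22 ± 0.43 and 5.56 ± 0.57 against 9.14 ± 0.40. Fcgr1 was nonetheless lower in Langerhans cells (-1.34 ± 0.33, adjusted p = 0.00372), and the CD11b DC were sorted as CD64-negative.

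**Figure D1:**
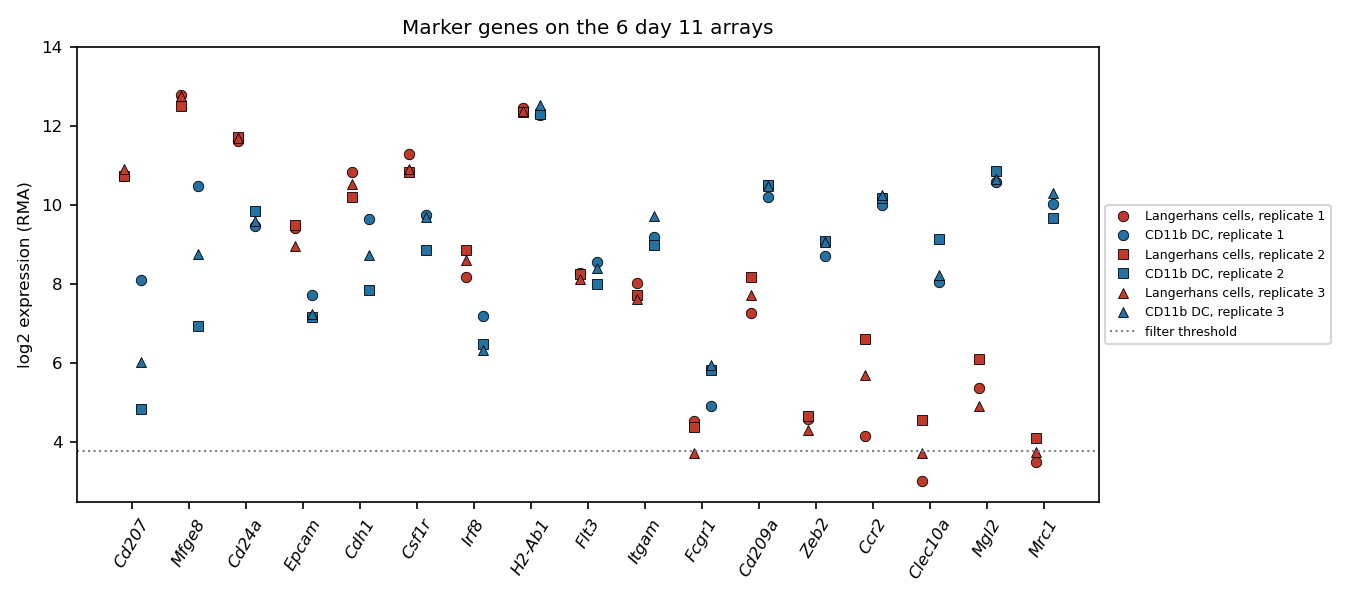
Log2 value of 17 marker genes on each of the 6 day 11 arrays (red Langerhans cells, blue CD11b DC, with a symbol for each replicate), with the filter threshold of 3.77 as a dotted line. Cd207 of CD11b DC replicate 1 (8.11) lies apart from its group, Flt3 and H2-Ab1 overlap, and Mrc1 leaves the widest gap.

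Across the transcriptome, 1847 genes differed between the populations (11.8% of all genes tested). Of these, 1130 were higher in Langerhans cells (7.25%) and 717 lower (4.6%), with a median over all genes of 0.02. Every count of called list members at day 11 stands against these shares of all genes. A difference of at least 2-fold was reached by 656 of the higher and 463 of the lower genes (7.18% of all genes tested), and one of at least 16-fold by 13 and 27. Genes that passed the test and whose groups did not overlap made up 11% of all genes. Leaving out 1 array gave 1402 genes (without Langerhans cell replicate 3) to 1731 (without CD11b DC replicate 3), and fitting only the 6 arrays gave 1146. Since these are sorted bulk samples, fewer cells carrying a transcript and less transcript per cell cannot be told apart.

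The widest difference in favour of Langerhans cells was Tmem45b, a transmembrane protein gene. It read 9.82, 10.17 and 10.23 in Langerhans cells and 3.43, 3.64 and 3.60 in CD11b DC (+6.52 ± 0.15, adjusted p = 1.14e-28). All 3 CD11b DC arrays lay at the floor, as did the means of moDC, MHCIIlow and MHCIIhigh macrophages at day 11 (3.65, 3.55 and 3.67). Tspan8, a tetraspanin of epithelial cells, read 8.93, 9.19 and 9.32 against 4.11, 3.18 and 3.14 (+5.67 ± 0.29). The ADP receptor gene P2ry13 read 10.18, 9.65 and 9.83 against 4.89, 4.83 and 4.30 (+5.21 ± 0.35). Unlike Tmem45b, it was also detected in macrophages, with day 11 means of 8.40 in MHCIIlow and 8.16 in MHCIIhigh cells.

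Rbp4, which encodes the carrier of retinol, read 10.03, 9.97 and 10.05 in Langerhans cells against 5.45, 4.86 and 4.19 in CD11b DC (+5.18 ± 0.27, adjusted p = 3.17e-17). The 3 Langerhans cell arrays were nearly identical, and moDC and macrophages were as low as CD11b DC, with means of 4.08 to 4.40. St14, the gene of the membrane serine protease matriptase, read 9.52, 8.98 and 9.05 against 5.11, 4.35 and 4.44 (+4.55 ± 0.22). The lysophosphatidic acid receptor gene Lpar3 (+4.47 ± 0.28), the NKG2A gene Klrc1 (+4.46 ± 0.33), the amino acid transporter gene Slc36a2 (+4.17 ± 0.32) and the cytochrome P450 gene Cyp4f37 (+4.68 ± 0.18) differed to a like degree. Glb1l2, Dkkl1, Fam189a2 and Igflr1 followed at +3.97 to +4.23. Krt2, a keratin of the upper epidermis, closed the 15 at +3.96 ± 0.58, with 8.89, 9.93 and 9.46 against 4.99, 5.08 and 6.33. Each of these 15 genes kept its call whichever array was left out.

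The widest difference in favour of CD11b DC was Mrc1, the gene of the mannose receptor CD206. It read 3.50, 4.11 and 3.75 in Langerhans cells and 10.03, 9.68 and 10.31 in CD11b DC (-6.22 ± 0.30, adjusted p = 7.61e-18). Langerhans cells lay at or just above the floor. Cybb, the catalytic subunit of the phagocyte NADPH oxidase, read 4.27, 6.02 and 4.49 against 10.16, 9.68 and 10.55 (-5.21 ± 0.30), and the lysozyme gene Lyz1 read 5.91, 7.46 and 7.25 against 11.72, 11.61 and 11.91 (-4.88 ± 0.41). In both genes Langerhans cell replicate 1 was the lowest and replicate 2 the highest. Cd163, the scavenger receptor for haemoglobin and haptoglobin, read 3.29, 4.20 and 3.37 against 8.76, 8.59 and 8.91 (-5.14 ± 0.35). The other genes among the 15 widest were the lectin genes Mgl2, Clec4b1, Clec10a and Cd209d, the receptor genes Ccr2, C3ar1 and Gfra2, and Fn1, Ccl9, Ms4a4a and Gm5150, at -4.46 to -5.24. The 15 genes kept their calls without any single array. Lyz1 and Lyz2, Mgl2 and Clec10a, and the Cd209 genes have near-identical relatives, and how far their probe sets read each other's transcripts was not tested.

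**Figure D2:**
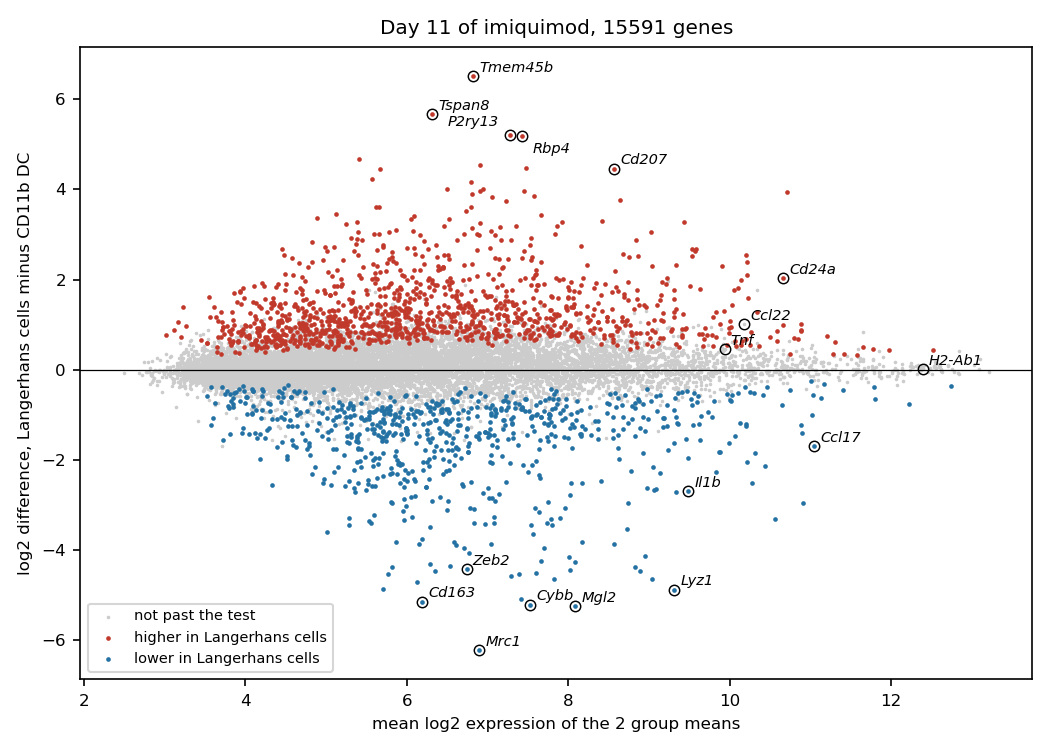
Log2 difference (Langerhans cells minus CD11b DC, day 11) against the mean log2 value of both groups for 15591 genes, with called genes coloured (1130 higher in red, 717 lower in blue) and a few genes circled and named. Tmem45b (+6.52) and Mrc1 (-6.22) mark the extremes.

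Of the 27 measured genes of the Langerhans cell identity list, 16 were higher, 1 was lower and 10 did not pass the test, with a median difference of 1.49. Mfge8, a bridging protein for apoptotic cells, read 12.78, 12.51 and 12.75 in Langerhans cells and 10.49, 6.95 and 8.76 in CD11b DC (+3.95 ± 0.49, adjusted p = 1.1e-07). As with Cd207, CD11b DC replicate 1 was the highest of its group. Ly75, the gene of the endocytic receptor DEC-205, read 8.93, 7.88 and 8.31 against 5.75, 5.07 and 5.29 , without overlap, and E-cadherin (Cdh1) read 10.85, 10.19 and 10.54 against 9.64, 7.84 and 8.74 (+1.79 ± 0.36). The prion protein gene Prnp (+3.28 ± 0.50) and Plek2 (+3.52 ± 0.36) were among the higher genes. Csf1r, the receptor that Langerhans cells need for their upkeep, was higher as well, with 11.30, 10.83 and 10.92 against 9.75, 8.86 and 9.70 (+1.58 ± 0.16, adjusted p = 1.19e-09). Cd200r1, an inhibitory receptor gene, was the member that went the other way (-2.57 ± 0.25). Of the 17 called members, 15 kept their calls whichever array was left out. The exceptions were the decoy receptor gene Il1r2 and Runx3, a transcription factor gene that Langerhans cells need. Runx3 read 9.98, 9.66 and 9.56 against 9.24, 8.44 and 8.82 (+0.90 ± 0.26, adjusted p = 0.0148) and lost its call without Langerhans cell replicate 1 or CD11b DC replicate 2 (adjusted p up to 0.128).

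Of the 23 measured genes of dermal conventional DC identity, 17 were lower, 2 were higher and 4 did not pass, with a median of -1.89. All 19 called genes kept their calls without any single array. Zeb2, a transcription factor gene of conventional DC of the CD11b type, read 4.58, 4.68 and 4.32 in Langerhans cells and 8.71, 9.11 and 9.06 in CD11b DC (-4.43 ± 0.20, adjusted p = 1.23e-18). Ccr2, the receptor that brings monocytes and pre-DC out of the blood, read 4.16, 6.62 and 5.70 against 10.01, 10.17 and 10.25 (-4.65 ± 0.38). Dpp4 (-3.03 ± 0.31), Clec12a (-2.81 ± 0.28), Cx3cr1 (-2.01 ± 0.40) and Klf4 (-1.89 ± 0.22) were also lower. The exceptions were Plet1 (+2.40 ± 0.52) and the fatty acid receptor gene Ffar2 (+1.40 ± 0.22), both higher in Langerhans cells. Irf4, on which dermal CD11b DC depend, did not pass the test (+0.50, adjusted p = 0.442). In untreated skin it was lower in Langerhans cells (-1.90), and the change to day 11 passed (+2.40, adjusted p = 0.000753).

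Other transcription factors of the myeloid lineage split between the populations. Of 42 measured genes, 6 were higher, 8 lower and 28 did not pass, with a median of -0.06. Irf8 read 8.17, 8.87 and 8.60 in Langerhans cells and 7.21, 6.49 and 6.34 in CD11b DC (+1.87 ± 0.30, adjusted p = 9.89e-06). Id1, a target of BMP signals, was higher (+1.99 ± 0.27), as were the aryl hydrocarbon receptor repressor gene Ahrr (+2.04 ± 0.23) and Zeb1 (+1.67 ± 0.35). Pparg, Tcf4, Batf3, Klf2 and Cebpb were lower by 1.41 to 2.31 on the log2 scale. Zeb1 and Zeb2, related zinc finger genes, thus differed in opposite directions. Id2, a regulator of dendritic cells, differed by +0.19 and did not pass. Of the 39 TGF-beta and BMP pathway genes, 4 were higher, 2 lower and 33 did not pass (15.4% called, against 11.8% of all genes). Tgfb1 itself differed by -0.27 (adjusted p = 0.374). The BMP receptor gene Bmpr1a was higher (+1.05 ± 0.23) at 3.51, 3.79 and 3.77, close to the floor, and Tgfbi was lower (-2.27 ± 0.23). In this list the higher count was 2 without Langerhans cell replicate 1 or CD11b DC replicate 2, and the lower count was 4 without the latter.

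The C-type lectin receptors, which bind sugars on microbes and on host proteins, were more often lower than higher in Langerhans cells. Of 33 measured members, 16 were lower, 3 higher and 14 did not pass, with a median of -0.90, and 18 of the 19 calls held without any single array. Mgl2, the gene of CD301b, read 5.38, 6.12 and 4.92 in Langerhans cells against 10.59, 10.86 and 10.66 in CD11b DC (-5.24 ± 0.38), and Clec10a, the gene of CD301a, read 3.03, 4.56 and 3.72 against 8.06, 9.15 and 8.24 (-4.71 ± 0.46). Clec4e, the gene of Mincle, a receptor for mycobacterial glycolipid, read 3.68, 3.93 and 3.30 against 5.80, 6.85 and 8.13 (-3.29 ± 0.39). The beta-glucan receptor gene Clec7a (-0.35) and the Dectin-2 gene Clec4n (+0.17) did not pass. Lower members were often neighbours in the RefSeq gene order. On chromosome 6, 6 of the 8 measured genes of the Clec4a to Clec4e block were lower, and on chromosome 8, 5 of the 6 measured genes from Clec4g through the Cd209 genes. On chromosome 11, Mgl2 and Clec10a were lower, while their neighbours Asgr1 (-0.14) and Asgr2 (-0.90) did not pass.

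The promoters of the lectin genes at either extreme, Cd207 and Mrc1, are shown because both genes are expressed by phagocytes and differ in opposite directions. The sequences are the 250 bases before each start in RefSeq for GRCm38.p6, 5′ to 3′ on the gene's strand. Capitals mark the letters GAGGAA on either strand, a core that PU.1, the myeloid ETS factor, binds. Cd207 lies on the minus strand at chr6:83677858-83678107 and Mrc1 on the plus strand at chr2:14229164-14229413.
Cd207: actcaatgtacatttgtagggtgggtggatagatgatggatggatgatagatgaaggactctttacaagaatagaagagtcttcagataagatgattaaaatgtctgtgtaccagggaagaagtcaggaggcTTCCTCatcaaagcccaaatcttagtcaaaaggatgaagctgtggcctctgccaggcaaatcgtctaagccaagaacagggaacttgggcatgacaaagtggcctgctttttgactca
Mrc1: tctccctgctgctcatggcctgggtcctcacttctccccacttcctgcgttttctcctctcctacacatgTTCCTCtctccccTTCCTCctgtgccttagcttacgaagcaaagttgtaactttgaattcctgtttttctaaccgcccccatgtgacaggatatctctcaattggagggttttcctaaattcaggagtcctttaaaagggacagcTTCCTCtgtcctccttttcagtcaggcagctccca
The Cd207 window held 1 match, 118 bases before the start, and the Mrc1 window 3, at 180, 167 and 35 bases, all on the reverse strand (TTCCTC). Of the 19 called lectin genes, 18 had a promoter entry, and 10 of these held the letters, against 25.9% of 27025 genes with an entry and 23.3% of all 32851 windows. Spi1, the gene of PU.1, did not pass the test (+0.35). A match is a description of the letters and not a binding site.

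Other receptors of innate cells were also more often lower than higher in Langerhans cells. Of 9 measured Fc receptor genes, 6 were lower (median -0.64) and the other 3 did not pass. Fcgr3 read 8.22, 8.63 and 8.76 in Langerhans cells and 9.62, 9.89 and 9.94 in CD11b DC (-1.28 ± 0.20), and Fcer1g, the signalling chain of activating Fc receptors such as Fcgr3, differed by -0.64 ± 0.09. Of the 37 paired activating and inhibitory receptor genes, 18 were lower, 1 was higher and 18 did not pass, with a median of -0.60. Among the lower genes were Lilrb4a, an inhibitory receptor (-3.30 ± 0.24), Cd300ld (-3.96 ± 0.27), Pirb (-1.74 ± 0.23) and Trem2 (-2.32 ± 0.38). Cd84, a SLAM family receptor, was the higher one, at 8.69, 8.74 and 8.69 against 7.67, 7.63 and 7.13 (+1.23 ± 0.19). Tyrobp, the adaptor that many of these receptors need, did not differ past the test (+0.03). Of the 19 calls, 16 held without any single array.

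The receptor for imiquimod itself was lower in Langerhans cells. Tlr7 read 3.14, 3.15 and 2.88 there, all at the floor, and 5.11, 7.09 and 4.63 in CD11b DC (-2.55 ± 0.38, adjusted p = 4.28e-06). CD11b DC replicate 2 was the highest, and both day 11 macrophage groups were higher still (means of 8.76 and 8.50). Unc93b1, which carries the nucleic acid receptors to endosomes, read 4.74, 7.73 and 6.80 against 9.77, 8.86 and 9.84 (-3.07 ± 0.37). The lipopeptide co-receptor gene Tlr1 (-4.37 ± 0.58), Cd14 (-2.16 ± 0.27), Tlr8 (-1.97 ± 0.30) and Ly86 (-1.82 ± 0.23) were lower as well. Of 39 measured genes of Toll-like and cytosolic sensing, 14 were lower, 1 was higher and 24 did not pass, with a median of -0.33. The common adaptor Myd88 differed by +0.10. Of the 15 calls, 10 held without any single array. Those lost were Irak1, Irak2, Irak3, Tlr2 and Tlr9. Irak2, the 1 higher gene (+1.02 ± 0.32, adjusted p = 0.0322), lost its call without Langerhans cell replicate 1 or 3 or CD11b DC replicate 2.

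Of 32 measured CC and CXC chemokine genes, 10 were lower in Langerhans cells and the other 22 did not pass, with a median of -0.25, and the 10 calls held without any single array. The monocyte attractants Ccl2 (-2.51 ± 0.34) and Ccl7 (-2.16 ± 0.43), the CCR1 ligands Ccl9 (-4.46 ± 0.33), Ccl6 (-3.85 ± 0.34) and Ccl3 (-2.72 ± 0.42), and the CXCR3 ligand Cxcl10 (-2.19 ± 0.50) were lower. Ccl17, a CCR4 ligand, read 10.04, 10.26 and 10.30 against 12.04, 12.08 and 11.56 (-1.70 ± 0.40, adjusted p = 0.00227). Ccl22, the other CCR4 ligand, read 10.76, 10.83 and 10.45 against 10.54, 8.62 and 9.87 and did not pass (+1.00 ± 0.45, adjusted p = 0.172). Its lowest value came from CD11b DC replicate 2.

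Among 27 chemoattractant receptor genes, 7 were lower, 2 higher and 18 did not pass (against 4.6% lower and 7.25% higher over all genes). Ccr1 read 6.99, 7.26 and 7.14 in Langerhans cells and 4.72, 4.59 and 4.23 in CD11b DC (+2.62 ± 0.31, adjusted p = 4.11e-08). Langerhans cells were thus higher in this receptor's transcript, while CD11b DC were higher in those of its ligands Ccl3, Ccl6 and Ccl9. C3ar1 (-4.56 ± 0.35), the leukotriene B4 receptor gene Ltb4r1 (-4.06 ± 0.33) and Cxcr4 (-2.63 ± 0.27) were lower. Ccr7, which guides dendritic cells to lymph nodes, read 8.46, 9.14 and 8.83 against 9.67, 8.69 and 10.13 and did not pass (-0.69 ± 0.32, adjusted p = 0.189). Without CD11b DC replicate 2 it did (-1.09, adjusted p = 0.0246). The other higher gene, Xcr1, read 3.23, 5.58 and 3.82 against 3.02, 3.19 and 3.16 (+1.09 ± 0.31) and lost its call without Langerhans cell replicate 2 (adjusted p = 0.385).

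Cytokines of the psoriasis-like response were unevenly spread. Of 36 inflammatory and IL-1 family genes, 6 were higher, 7 lower and 23 did not pass, with a median of 0.07. Il1b read 6.25, 9.18 and 8.99 in Langerhans cells and 9.92, 11.09 and 11.51 in CD11b DC (-2.70 ± 0.48, adjusted p = 7.22e-05), and Il6 read 3.16, 5.96 and 3.91 against 5.99, 8.42 and 7.49 (-2.96 ± 0.66, adjusted p = 0.00136). In both genes Langerhans cell replicate 1 was the lowest, and the groups did not overlap. Oncostatin M (Osm) was lower as well (-2.49 ± 0.35). On the other side stood Il18, with 8.69, 9.38 and 9.20 against 7.24, 7.99 and 6.43 (+1.87 ± 0.39, adjusted p = 0.000541), the lymphotoxin beta gene Ltb (+1.68 ± 0.23) and Il1f9, the gene of IL-36 gamma (+1.59 ± 0.41). Tnf did not pass, with 9.75, 10.39 and 10.37 against 9.60, 9.77 and 9.74 (+0.47 ± 0.46, adjusted p = 0.643). Il23a did not pass (+0.10, adjusted p = 0.906), with means of 3.99 ± 0.33 and 3.89 ± 0.09 close to the floor, nor did Il12b, the gene of the chain that IL-12 and IL-23 share (-0.42, adjusted p = 0.609). Of the 13 calls, 8 held without any single array.

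The alarmin gene S100a9 read 10.63, 11.24 and 10.80 in Langerhans cells and 8.77, 8.09 and 7.90 in CD11b DC (+2.64 ± 0.43, adjusted p = 1.48e-05). Its partner S100a8 read 10.77, 11.68 and 11.24 against 9.50, 9.69 and 9.19, without overlap, but did not pass (+1.77 ± 0.77, adjusted p = 0.151). Fitting only the 15 day 11 arrays it did (adjusted p = 0.000872). Neutrophils and inflamed keratinocytes are known to make both. The neutrophil genes Ngp and Mmp8 were at the floor on all Langerhans cell arrays. Others lay above it on each of these arrays, such as Camp (4.36, 4.16 and 4.19), Cd177 (4.62, 4.42 and 4.22) and Lcn2 (4.53, 6.56 and 5.66). In CD11b DC Camp read 4.04, 4.33 and 4.09 and Cd177 read 4.66, 4.95 and 4.50, so both overlapped. Lcn2 read 4.30, 3.81 and 4.14 there. Of 13 neutrophil markers 2 were higher (S100a9 and Lcn2), 1 was lower (Csf3r, -1.55 ± 0.24) and 10 did not pass. The higher count was 1 without Langerhans cell replicate 2 or 3 or any 1 CD11b DC array. The log2 of the summed signal of these 13 genes was 11.78 to 12.54 in Langerhans cells and 10.03 to 10.41 in CD11b DC. This sum includes S100a8 and S100a9 and is no separate measure of neutrophils, whose part in the S100a9 difference was not tested.

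Of 18 measured genes of MHC class II presentation, 1 was higher, 1 lower and 16 did not pass (11.1% called, against 11.8% of all genes). H2-Ab1 read 12.45, 12.35 and 12.39 in Langerhans cells and 12.29, 12.31 and 12.54 in CD11b DC (+0.02 ± 0.16, adjusted p = 0.973). Cd74 (+0.04), H2-Aa (+0.07) and the master regulator Ciita (-0.04) did not pass either. Both populations were sorted as MHCII+, so these levels are not independent of the sort. The called members were Marchf8, an enzyme that removes MHC class II from the surface (+0.76 ± 0.21), and the lysosomal reductase gene Ifi30 (-0.44 ± 0.12). Marchf8 lost its call without Langerhans cell replicate 3 or CD11b DC replicate 1 (adjusted p up to 0.0697), and Ifi30 without CD11b DC replicate 2 (adjusted p = 0.0609). In the MHC class I and immunoproteasome list, 4 of 18 genes were higher (22.2%, against 7.25% of all genes) and the other 14 did not pass. The non-classical gene H2-M2 read 9.69, 8.79 and 8.82 against 5.69, 5.80 and 4.57 (+3.75 ± 0.25, adjusted p = 2.9e-14). Psmb8, Psmb9 and the peptide transporter gene Tap1 were higher by +0.64 to +0.88, and B2m did not pass (-0.19).

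Of 30 measured genes of dendritic cell maturation and migration, 12 were lower, 2 higher and 16 did not pass, with a median of -0.53. The lower count was 7 without Langerhans cell replicate 1 or replicate 2, and only 7 of the 14 calls held without any single array. Tnfsf9, the gene of 4-1BB ligand, read 4.91, 6.75 and 6.45 in Langerhans cells and 8.26, 10.31 and 9.76 in CD11b DC (-3.41 ± 0.44, adjusted p = 1.87e-07). Its receptor gene Tnfrsf9 went the opposite way, with 8.39, 8.82 and 8.40 against 6.43, 4.27 and 5.14 (+3.26 ± 0.34, adjusted p = 2.14e-09). Icosl (-1.39 ± 0.29) and Icam1 (-1.23 ± 0.26), which take part in T cell contact, were lower, while the costimulatory gene Cd86 was higher (+0.93 ± 0.22). Cd80 (+0.15), Cd40 (+0.55), Cd83 (+0.38) and the actin bundler gene Fscn1 (+0.06) did not pass.

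Among 36 regulatory mediators and checkpoints, 9 were lower, 1 was higher and 26 did not pass, with a median of -0.29. Without Langerhans cell replicate 1 the lower count was 4. Cd274, the gene of PD-L1, read 4.84, 5.17 and 5.69 in Langerhans cells and 6.89, 7.57 and 7.35 in CD11b DC (-2.04 ± 0.39, adjusted p = 0.000227). Pdcd1lg2, the gene of PD-L2, differed by -1.30 ± 0.44 (adjusted p = 0.0474) and lost its call without any one of the 3 Langerhans cell arrays or CD11b DC replicate 1 or 2 (adjusted p up to 0.18). Il10 read 4.50, 4.67 and 5.71 against 5.99, 7.12 and 6.48 (-1.57 ± 0.47, adjusted p = 0.0205). It lost its call without Langerhans cell replicate 1 or 2 or CD11b DC replicate 2 (adjusted p up to 0.136). The 1 higher gene, Havcr2, the gene of TIM-3 (+0.76 ± 0.23, adjusted p = 0.021), lost its call without Langerhans cell replicate 1 or 3 or CD11b DC replicate 1 or 3.

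Of the 31 interferon-stimulated genes, 6 were lower, 2 higher and 23 did not pass, with a median of -0.40. Over all genes 4.6% were lower and 7.25% higher. Rtp4 (-2.70 ± 0.38), Zbp1, a sensor of Z-form nucleic acid (-1.84 ± 0.26), and Ifitm3 (-1.40 ± 0.19) were lower. Oas3 read 5.70, 6.57 and 5.95 in Langerhans cells and 4.36, 4.38 and 4.77 in CD11b DC (+1.57 ± 0.30, adjusted p = 0.000203). Calls in this list went in both directions, and Mx1 (-0.26), Rsad2 (-0.34) and Usp18 (+0.79) did not pass. The other higher gene, the tetherin gene Bst2 (+0.50 ± 0.16, adjusted p = 0.0382), lost its call without Langerhans cell replicate 1 or 2 or CD11b DC replicate 1 or 3, and the higher count was 1 without Langerhans cell replicate 1 or 2 or CD11b DC replicate 3.

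Of the macrophage core list, 20 of 43 measured genes were lower, 5 higher and 18 did not pass, with a median of -0.51. Cd68 read 8.95, 9.38 and 9.23 in Langerhans cells and 11.20, 11.06 and 11.45 in CD11b DC (-2.05 ± 0.14, adjusted p = 1.73e-13). The complement genes of C1q parted ways. C1qa read 9.61, 9.56 and 9.41 against 8.55, 6.81 and 8.20 (+1.67 ± 0.36, adjusted p = 0.000967), whereas C1qb read 7.65, 8.07 and 7.43 against 9.14, 9.08 and 8.85 (-1.31 ± 0.28, adjusted p = 0.000996). C1qc was lower (-1.05 ± 0.30), a call lost without Langerhans cell replicate 1 or 3 or CD11b DC replicate 1. The lipid carrier gene Apoe (+1.86 ± 0.17), Csf1r, Dok3 (+2.46 ± 0.40) and the cobalamin carrier gene Tcn2 (+1.57 ± 0.25) were higher. Folr2 (+0.01), Mertk (-0.10) and Lyve1 (-0.10) did not pass. Of 22 monocyte signature genes, 10 were lower, 2 higher and 10 did not pass, with a median of -0.74. Lyz2 differed by -2.96 ± 0.34 and Fn1, the fibronectin gene, by -4.50 ± 0.37. The log2 summed signal of this list was 13.75 to 13.97 in Langerhans cells and 14.60 to 14.80 in CD11b DC.

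Genes of alternative activation, known from macrophages under IL-4 and IL-13, were lower in 11 of 28 cases and did not pass in the other 17, with a median of -0.54. Retnla, a secreted product of such macrophages, read 5.77, 6.81 and 4.85 in Langerhans cells and 10.76, 10.15 and 9.83 in CD11b DC (-4.43 ± 0.78, adjusted p = 5.32e-05). Ccl24 (-2.02 ± 0.36) and the transglutaminase gene F13a1 (-2.42 ± 0.31) were lower. Arg1 (-0.19) and Chil3 (-0.79) did not pass, and Mrc1, Mgl2, Clec10a and Cd163 belong to this list as well. Of 37 lysosomal genes, 9 were lower, 2 higher and 26 did not pass (against 4.6% lower and 7.25% higher over all genes). Cathepsin C (Ctsc) was lower (-1.22 ± 0.16) and Psap, which encodes the precursor of the saposins, too (-1.24 ± 0.12), while cathepsins B, L and S did not pass (+0.41, +0.53 and +0.11). The tetraspanin gene Cd63 was higher (+1.01 ± 0.18). The higher count was 1 without Langerhans cell replicate 2 or CD11b DC replicate 2, and 4 without CD11b DC replicate 3.

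Epithelial junction genes were mostly higher in Langerhans cells. Of 27 measured genes, 17 were higher and the other 10 did not pass, with a median of 1.10, and 14 calls held without any single array. The tight junction scaffold gene Tjp1 read 7.71, 6.30 and 6.55 in Langerhans cells and 3.19, 3.31 and 3.66 in CD11b DC (+3.46 ± 0.39, adjusted p = 1.21e-08). Claudin 1 (Cldn1) read 11.45, 11.46 and 11.50 against 9.99, 8.45 and 8.36 (+2.54 ± 0.56), and the junction proteins plakoglobin (Jup, +1.40 ± 0.27) and p120 catenin (Ctnnd1, +1.52 ± 0.33) were higher. Among 39 integrins and leukocyte adhesion genes, 5 were higher, 10 lower and 24 did not pass. Itga4 read 5.98, 5.36 and 5.95 against 8.54, 8.46 and 8.55 (-2.75 ± 0.26) and the collagen-binding integrin gene Itga1 differed by -2.50 ± 0.25. F11r, the gene of the junctional adhesion molecule JAM-A, was higher (+1.77 ± 0.41). Itgae, whose product binds E-cadherin, did not pass (+0.42).

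Keratinocyte markers differed in the same direction as the junction genes. Of 34 measured markers, 23 were higher in Langerhans cells and the other 11 did not pass, with a median of 1.86. Their mean log2 level was 7.26 ± 0.26 (SD, n = 3) in Langerhans cells and 5.58 ± 0.06 in CD11b DC, and the log2 of their summed signal 13.61 to 14.26 against 11.64 to 11.80. Krt14, the keratin of basal keratinocytes, read 10.24, 10.71 and 10.52 against 8.25, 7.86 and 8.40 (+2.32 ± 0.48), and Krt16, a keratin of the inflamed epidermis, read 8.54, 9.08 and 8.19 against 4.81, 4.81 and 5.38 (+3.61 ± 0.61). Keratin transcripts were also present in dermal groups, since Krt14 averaged 10.38 in MHCIIhigh macrophages at day 11. Krt6b, Krt24, Lor, Acer1 and Fgfr2 were at the floor on all CD11b DC arrays, but these genes did not pass the test. In Langerhans cells Krt24 read 3.43, 3.40 and 3.98, Lor 4.29, 3.68 and 3.57, and Fgfr2 3.76, 3.84 and 3.85. Dsc3, Dsp, Dsg3 and Pkp1 are in both lists, and Krt2 stands among the 15 widest differences. The part of keratinocyte RNA in these differences was not tested.

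XCR1 dendritic cells of the skin also carry langerin, and 6 of their 15 measured markers were higher, 3 lower and 6 did not pass. Over all genes 7.25% were higher and 4.6% lower. The higher markers include Cd207 and Cd24a, which are also markers of Langerhans cells, and the sort itself fixed the Cd24a difference. Of the 9 calls, 6 held without any single array, and those of Clec9a, Wdfy4 and Xcr1 did not. Xcr1 and Clec9a were at the floor on all CD11b DC arrays and reached 5.58 and 5.25 in Langerhans cell replicate 2. Other markers were well above the floor in both populations. Irf8 averaged 8.55 in Langerhans cells and 6.68 in CD11b DC, and Naaa 7.98 and 10.28. The part of XCR1 dendritic cells in the differences was not tested. Of 17 T cell markers, 5 were lower in Langerhans cells and 12 did not pass. Cd3d, Zap70, Ctla4, Cd28, Nkg7 and Gzmb were at the floor on all Langerhans cell arrays, while Cd2 read 8.22, 8.30 and 8.57 and Thy1 7.51, 7.74 and 8.38. Cd2, Thy1 and Cd4 lay above CD11b DC without overlap and did not pass (+0.83, +0.83 and +0.57). Without CD11b DC replicate 2 the count of lower T cell markers was 1, and it was 3 without Langerhans cell replicate 2 or 3. Of 17 fibroblast markers 2 were higher (Dcn and Fap), with 1 left without any one of Langerhans cell replicates 1 and 2 and CD11b DC replicates 1 and 2, and none past the test without Langerhans cell replicate 3. The B cell co-receptor gene Cd79b was the 1 lower gene of 8 B cell markers (-2.87 ± 0.58), while Pax5 and Cd79a did not pass. Of 14 markers of endothelial cells and melanocytes, 0 passed the limma test and 1 had an unadjusted p under 0.05, and with the fit left without CD11b DC replicate 1 the count was 1.

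**Figure D3:**
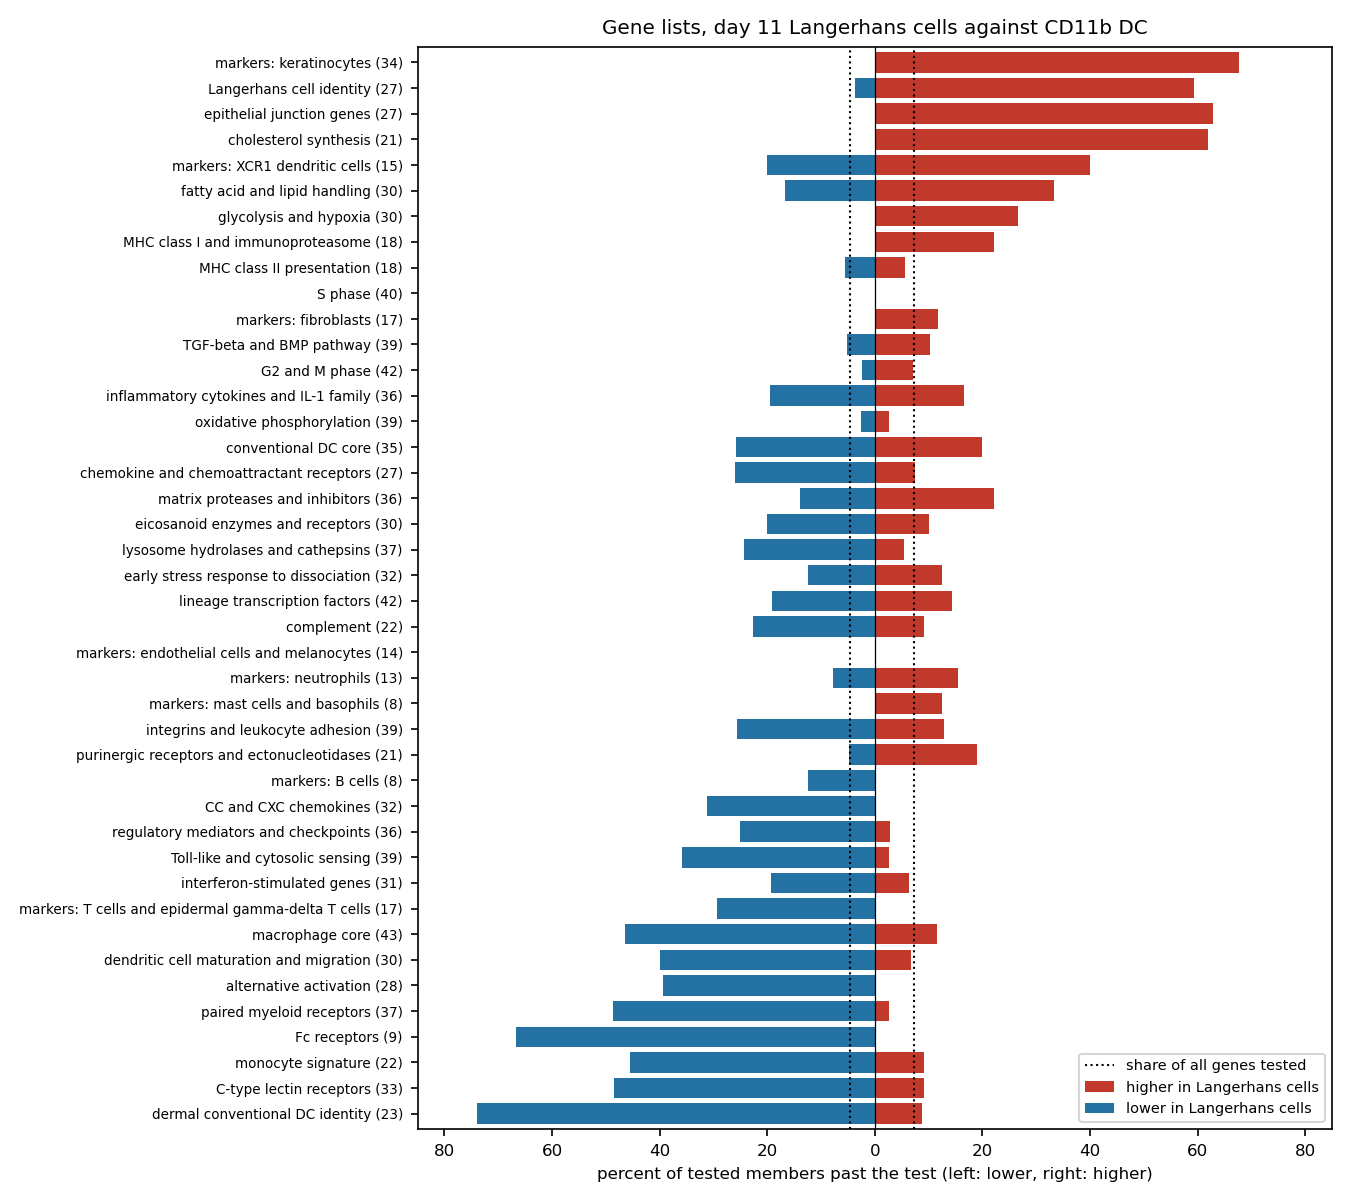
Percent of the measured members of each of 42 gene lists that were higher (right) or lower (left) in Langerhans cells than in CD11b DC at day 11, with dotted lines at the shares of all 15591 genes (7.25% and 4.6%). Keratinocyte, junction, Langerhans cell identity and cholesterol lists extend to the right, and dermal DC identity, Fc receptor and lectin lists to the left.

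Of 21 measured cholesterol synthesis genes, 13 were higher in Langerhans cells and the other 8 did not pass, with a median of 0.79. Squalene epoxidase (Sqle) read 7.56, 7.94 and 7.95 in Langerhans cells and 6.59, 5.40 and 6.24 in CD11b DC (+1.74 ± 0.35, adjusted p = 0.000475), and Pmvk, a kinase of the mevalonate pathway, read 7.98, 8.00 and 8.18 against 6.57, 6.05 and 6.62 (+1.64 ± 0.26). Idi1 (+1.37 ± 0.32) and Fdps (+1.05 ± 0.24), which make and join the isoprene units, were higher. These 4 were the only members whose calls held without any single array. The count was 7 without CD11b DC replicate 2, which was the lowest CD11b DC array in Sqle and Pmvk, 8 without Langerhans cell replicate 2, and 4 when only the 6 arrays were fitted.

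The promoter of Hmgcs1, which encodes HMG-CoA synthase of the mevalonate pathway, is shown because sterol-regulated genes are known to carry a sterol regulatory element. Hmgcs1 read 7.86, 7.54 and 8.19 against 7.21, 6.37 and 6.80 (+1.07 ± 0.29, adjusted p = 0.0106) and lost its call without Langerhans cell replicate 3 or CD11b DC replicate 2 (adjusted p up to 0.0948). The window is the 250 bases before the start in RefSeq for GRCm38.p6, plus strand, chr13:119690101-119690350, and capitals mark TCACNCCAC.
Hmgcs1: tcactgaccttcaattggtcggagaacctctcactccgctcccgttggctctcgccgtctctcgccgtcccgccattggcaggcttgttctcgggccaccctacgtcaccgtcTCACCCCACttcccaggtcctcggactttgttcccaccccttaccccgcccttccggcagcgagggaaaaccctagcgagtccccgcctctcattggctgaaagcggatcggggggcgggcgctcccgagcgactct
The match lay 137 bases before the start. Of the 13 called cholesterol genes, 10 had a promoter entry and 1 held these letters on either strand, against 1.22% of 27025 genes. That 1 gene is the printed Hmgcs1, so its promoter does not stand for the list. All 10 held CCAAT on either strand, against 37.5% of genes and 33.8% of windows, and among the 18 called lectin genes with an entry 6 did.

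In fatty acid and lipid handling, 10 of 30 genes were higher, 5 lower and 15 did not pass, with a median of 0.36. Mgll, the monoglyceride lipase gene, read 7.49, 7.45 and 7.32 in Langerhans cells and 4.60, 4.42 and 3.92 in CD11b DC (+3.11 ± 0.34, adjusted p = 7.15e-09), and Lpl, the lipoprotein lipase gene, went the other way with 3.98, 4.83 and 4.29 against 8.82, 8.59 and 8.73 (-4.34 ± 0.33, adjusted p = 1.01e-12). Fatty acid synthase (Fasn, +1.23 ± 0.19) and Elovl5 (+1.80 ± 0.34) were higher. Without CD11b DC replicate 2 the higher count was 5, and without CD11b DC replicate 1 the lower count was 3. Of 30 glycolysis and hypoxia genes, 8 were higher and 22 did not pass, with a median of 0.24. Aldoc read 8.58, 8.47 and 8.89 against 7.47, 5.65 and 7.11 (+1.90 ± 0.39), and Aldoa (+0.86 ± 0.17) and Pdk1 (+1.21 ± 0.30) kept their calls too. The count was 4 without Langerhans cell replicate 2 or 3 and 5 without CD11b DC replicate 2. Of 39 oxidative phosphorylation genes, 1 was higher, 1 lower and 37 did not pass (5.13% called), and neither call held without every single array. The higher count was 4 without CD11b DC replicate 1, 2 without CD11b DC replicate 3, and no gene was left as higher without Langerhans cell replicate 2 or 3 or CD11b DC replicate 2.

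Of 30 genes for eicosanoid enzymes and receptors, 3 were higher, 6 lower and 21 did not pass. The 3 higher genes encode enzymes. Alox5, the 5-lipoxygenase gene, read 10.96, 10.64 and 10.77 in Langerhans cells and 8.72, 7.94 and 8.16 in CD11b DC (+2.52 ± 0.36, adjusted p = 1.31e-06). Ltc4s, the leukotriene C4 synthase gene, read 11.11, 10.95 and 11.16 against 8.10, 9.11 and 6.19 (+3.28 ± 0.45), and Hpgds, the haematopoietic prostaglandin D synthase gene, read 10.63, 10.39 and 10.53 against 8.27, 5.84 and 6.16 (+3.76 ± 0.35). Among the lower genes were the receptor gene Ltb4r1, the prostacyclin receptor gene Ptgir (-1.51 ± 0.36) and the cysteinyl leukotriene receptor gene Cysltr1 (-1.50 ± 0.32). Enzyme genes were lower too, with Pla2g7, whose product degrades platelet-activating factor (-3.81 ± 0.28), and the leukotriene A4 hydrolase gene Lta4h (-0.86). The Lta4h call was lost without Langerhans cell replicate 1 or CD11b DC replicate 2 (adjusted p up to 0.2 in limma). Among 21 purinergic genes, 4 were higher, 1 lower and 16 did not pass. P2ry12, P2ry13 and P2ry14, related receptors for ADP and for UDP-sugars, were all higher (+2.04 ± 0.49, +5.21 ± 0.35 and +1.47 ± 0.31). P2rx7 was the lower one (-1.21 ± 0.33), with the call lost without Langerhans cell replicate 2 (adjusted p = 0.0638). Without CD11b DC replicate 2 the lower count was 2.

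Of 36 matrix proteases and inhibitors, 8 were higher, 5 lower and 23 did not pass. The gelatinase gene Mmp9 read 6.90, 6.40 and 6.62 in Langerhans cells and 5.00, 4.54 and 4.33 in CD11b DC (+2.02 ± 0.25, adjusted p = 6.35e-08), and the macrophage elastase gene Mmp12 was lower (-3.30 ± 0.51, adjusted p = 6.96e-06). The cysteine protease inhibitor genes Stfa3 (+2.31 ± 0.55) and Stfa2 (+2.12 ± 0.31) were higher, and Timp2 was lower (-2.84 ± 0.46). Among complement genes, 2 of 22 were higher, 5 lower and 15 did not pass, with properdin (Cfp, +0.86 ± 0.18) higher. The lower count was 3 without Langerhans cell replicate 3.

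Proliferation genes gave no common direction at day 11. Of 40 S phase genes 0 passed the limma test, and 3 had an unadjusted p under 0.05. Of 42 genes of G2 and M phase, 3 were higher, 1 lower and 38 did not pass (against 7.25% higher and 4.6% lower over all genes). The lower gene, Mki67, read 6.46, 5.33 and 5.27 in Langerhans cells and 6.93, 7.89 and 7.07 in CD11b DC (-1.61 ± 0.30, adjusted p = 0.000126). Top2a, a topoisomerase of dividing cells, read 7.65, 7.22 and 6.74 against 7.26, 7.41 and 7.29 (-0.12, adjusted p = 0.894). The higher count was 1 without Langerhans cell replicate 2 or 3 or CD11b DC replicate 2 or 3 and 5 without CD11b DC replicate 1, and the lower count was 2 without Langerhans cell replicate 1. The same list had stood differently before. In untreated skin 22 of its genes were lower in Langerhans cells (against 11.9% of all genes), and at day 5 25 were higher (against 4.84% of all genes), when Mki67 read 7.89, 7.71 and 7.13 in Langerhans cells and 6.57, 6.86 and 6.85 in CD11b DC. For Mki67 the day 11 difference was below the day 5 difference by a test of the difference itself (-2.43 ± 0.42, adjusted p = 0.00229).

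Of 32 genes induced by tissue dissociation, 4 were higher, 4 lower and 24 did not pass, with a median of -0.05. Egr1 (+1.28 ± 0.22) and Egr3 (+0.79 ± 0.16) were higher, Klf2 (-1.48 ± 0.25) was lower, and Fos (+0.20), Jun (+0.56) and Atf3 (-0.05) did not pass.

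The populations had differed in more genes before treatment. In untreated skin 3603 genes were called (23.1% of 15591, with 1751 or 11.2% higher and 1852 or 11.9% lower) and at day 5 1238 (7.94%, with 754 or 4.84% higher and 484 or 3.1% lower). In untreated skin 48.6% of the calls were higher, and 38.5% after centring each array on its median. Of the 1130 genes higher at day 11, 594 were also higher in untreated skin, which is 52.6% of the day 11 set and 33.9% of the untreated set, and 26 were lower there. Of the 717 lower genes, 533 were also lower in untreated skin (74.3% of the day 11 set and 28.8% of the untreated set), and 5 were higher there. The comparisons share no arrays, and the test of the difference itself called 1421 genes (9.11%) between day 11 and untreated skin and 74 (0.475%) between day 11 and day 5. Against untreated skin the difference shifted up in 5.18% of all genes and down in 3.94%, and against day 5 in 0.16% and 0.314%. The upward share of the 1421 was 56.8%, and 69.7% after centring each array on its median. Of the 1421, 1127 had a smaller difference at day 11. The 1421 include 421 genes higher and 413 lower in untreated skin that no longer passed at day 11. They also include 149 and 41 genes that passed as higher or lower at day 11 but not in untreated skin. Of the 26 and 5 genes called in opposite directions, Adam23, Bst2, Dcn, Psmb8, Rbp4 and Acp5 are members of the lists or of the widest differences. The count against day 5 ran from 36 without day 5 Langerhans cell replicate 1 to 123 without day 11 Langerhans cell replicate 1, was 42 without day 11 Langerhans cell replicate 3 and 39 without day 5 Langerhans cell replicate 2, and was 5 when only these groups were fitted.

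**Figure D4:**
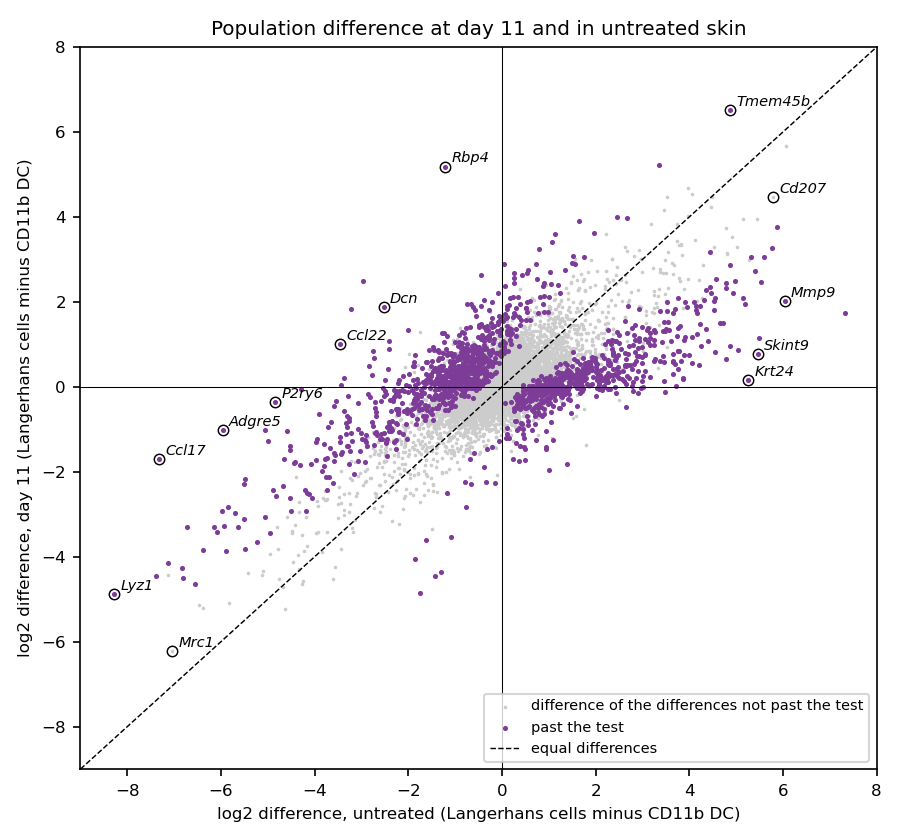
Log2 difference between Langerhans cells and CD11b DC at day 11 (vertical) against the same difference in untreated skin (horizontal) for 15591 genes, with the 1421 genes whose differences differ past the test in purple and a dashed line where both are equal. Most purple genes lie nearer to 0 on the vertical axis (1127), and Rbp4 crosses from -1.22 to +5.18.

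Rbp4 showed the widest change in this comparison. In Langerhans cells it read 4.66, 4.45 and 4.78 in untreated skin, 9.31, 9.30 and 9.26 at day 5 and 10.03, 9.97 and 10.05 at day 11, while the CD11b DC means were 5.85, 4.38 and 4.83. The difference between the populations thus went from -1.22 to +5.18 (change +6.40 ± 0.38, adjusted p = 8.78e-15). Ccl17 went from 5.29, 4.67 and 4.80 to 10.04, 10.26 and 10.30 in Langerhans cells and stayed between 11.53 and 12.39 on all 9 CD11b DC arrays (change +5.63 ± 0.56, adjusted p = 3.52e-09). Ccl22 had a similar course, from 6.47, 6.85 and 6.10 to 10.76, 10.83 and 10.45 (change +4.47 ± 0.64, adjusted p = 5.41e-06). Both CCR4 ligands were lower in untreated Langerhans cells (by 7.33 and 3.46 on the log2 scale), and at day 11 a smaller difference was left for Ccl17 and none past the test for Ccl22. Adgre5, the CD97 gene (+4.95 ± 0.31), and the UDP receptor gene P2ry6 (+4.48 ± 0.36) changed likewise.

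Changes of the opposite sign included genes that were high in untreated Langerhans cells, and their difference also shrank. F830045P16Rik read 10.02, 10.17 and 10.27 in untreated Langerhans cells and 4.12, 4.84 and 5.45 at day 11, with CD11b DC between 2.72 and 3.23 on all 9 arrays (change -5.59 ± 0.34, adjusted p = 8.78e-15). The keratin gene Krt24 went from 8.37, 8.86 and 8.28 to 3.43, 3.40 and 3.98 (change -5.09 ± 0.25), and Skint9 and the keratinocyte markers Ovol1 and Acer1 had changes of -4.69, -4.16 and -3.91. The mean level of the 34 keratinocyte markers in Langerhans cell samples was 8.68 ± 0.27 (SD, n = 3) in untreated skin and 7.26 ± 0.26 at day 11, and its part in these changes was not tested. Mmp9 went from 10.02, 9.96 and 10.32 to 6.90, 6.40 and 6.62 (change -4.02 ± 0.35). Of the keratinocyte list 16 of 34 genes and of the junction list 12 of 27 had a difference that was smaller at day 11 past the test.

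Between day 5 and day 11 the upward change largest in size was that of Ccr1. It went from 5.98, 5.52 and 5.65 to 6.99, 7.26 and 7.14 in Langerhans cells and went from 6.49, 6.42 and 6.58 to 4.72, 4.59 and 4.23 in CD11b DC, so that its difference changed by +3.40 ± 0.44 (adjusted p = 3.16e-05). Ffar2 had a smaller change with a lower adjusted p (+2.74 ± 0.31, adjusted p = 2.48e-06). These genes and Tnfsf4, the OX40 ligand gene (+2.61 ± 0.46), were the 3 of 16 genes chosen by size of change that kept their calls in every alternative. The change was in the other direction for Mrc1, which read 8.26, 7.42 and 5.76 in day 5 Langerhans cells, against 3.47, 3.47 and 3.37 in untreated and 3.50, 4.11 and 3.75 in day 11 Langerhans cells, and CD11b DC lay between 9.68 and 10.60 throughout (change -3.19 ± 0.43, adjusted p = 4.85e-05). Fn1 (-3.00 ± 0.53), Cybb (-2.79 ± 0.42) and Cd163 (-2.75 ± 0.49) had the same course and lost their calls only when the fit was limited to these groups. In each of them day 5 Langerhans cell replicate 3 was the lowest of its group.

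**Figure D5:**
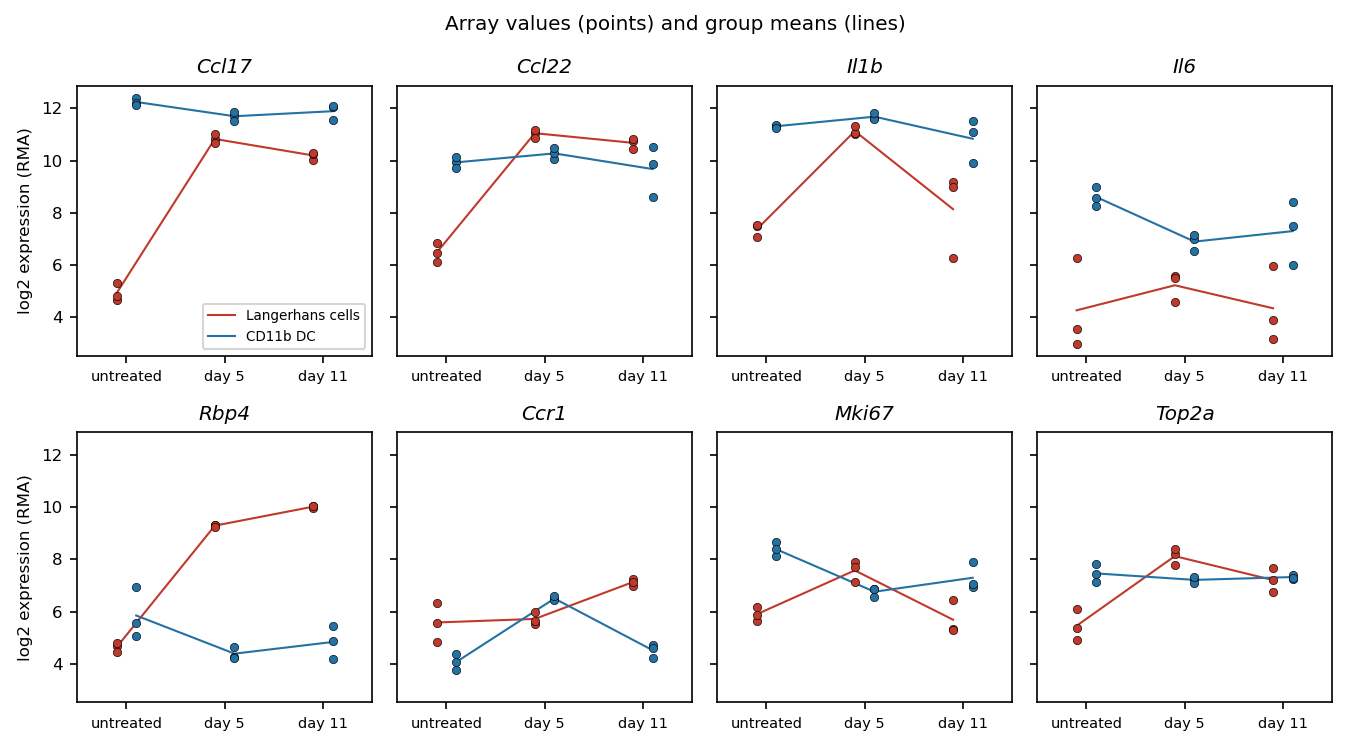
Log2 value of Ccl17, Ccl22, Il1b, Il6, Rbp4, Ccr1, Mki67 and Top2a in untreated, day 5 and day 11 samples of Langerhans cells and CD11b DC (points are arrays, 3 per group, and lines join group means). Ccl17 and Rbp4 of Langerhans cells stand high at both treated times, and Ccr1 of CD11b DC peaks at day 5.

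Over all genes, the share called higher was 11.2% in untreated skin, 4.84% at day 5 and 7.25% at day 11, and the share called lower 11.9%, 3.1% and 4.6%, so list counts at the 3 times stand against different backgrounds. Langerhans cell identity genes were higher in 16 of 27 cases in untreated skin, 12 at day 5 and 16 at day 11, with medians of 1.07, 1.11 and 1.49. Lectins were lower in 20 of 33, 16 and 16 cases, and dermal DC identity genes in 17 of 23 at each time. Maturation genes were lower in 18 of 30, 6 and 12 cases, and for 11 of them the day 11 difference lay above the untreated one past the test. Chemokines were lower in 15 of 32, 7 and 10 cases. Cholesterol synthesis genes were higher in 14 of 21, 9 and 13 cases.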

How the data were processed

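Sorted mouse skin phagocytes were measured on 48 Affymetrix gene arrays (16 groups of 3). The deposited values are log2 expression values. The submitters' processing notes name RMA, oligo and limma, and give no order or version. The 3 deposited tables held identical values where they overlapped.

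Probe sets with exactly 1 gene symbol (21789 of 35556, with 1621 naming several genes and 12146 none) were kept where log2 passed the 40th percentile (3.77) on at least 3 arrays, and the probe set with the highest mean stood for a gene (15591 genes). limma 3.58.1 in R 4.3.3 fitted 16 group means over all 48 arrays (lmFit, eBayes), with Benjamini-Hochberg adjustment over all genes and a threshold of 0.05. The comparison at day 11, those in untreated skin and at day 5, and their differences were contrasts of this fit, which was tested on simulated data. The number of arrays limits the precision.

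Groups came from the source labels. The compared populations, the 42 gene lists and the 35 genes reported whatever their result (34 tested) were chosen with earlier results of these data known. Beyond those 35, the text names the 15 widest called, non-overlapping differences in each direction, the 8 widest changes in each direction against untreated skin and day 5, and list members by size of difference. Members named as not passing the test were chosen after their values were seen. Alternatives changed the normalisation, filter, probe set rule, arrays fitted, variance model, replicate block and each replicate in turn. Promoter and miRNA sequences are RefSeq's for GRCm38.p6.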

Additional observations from a re-analysis of the deposited data

Results flagged for a closer look

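These results were set apart because the difference between Langerhans cells and CD11b DC itself differed between conditions in limma's test of that difference. The first letters of the sample titles differ between the populations in untreated skin, and a batch that followed them cannot be told apart from the change against untreated skin. The test called 1421 genes between day 11 and untreated skin. The change in log2 difference was 6.40 for Rbp4, 5.63 for Ccl17, 5.46 for Cytl1, 5.06 for Gpr141b, 4.95 for Adgre5, 4.48 for P2ry6, 4.47 for Ccl22 and 4.40 for Dcn. In the other direction it was -5.59 for F830045P16Rik, -5.09 for Krt24, -4.69 for Skint9, -4.34 for Dapl1, -4.16 for Ovol1, -4.14 for Gm94, -4.02 for Mmp9 and -3.91 for Acer1.

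Between day 11 and day 5 the test called 74 genes. The change was 3.40 for Ccr1, 2.78 for I730030J21Rik, 2.74 for Ffar2, 2.61 for Tnfsf4, 2.51 for Csta2, 2.16 for Slc41a2, 2.15 for Gal and 1.98 for Klrc1. In the other direction it was -3.19 for Mrc1, -3.18 for Stfa2, -3.00 for Fn1, -2.89 for Lyz1, -2.79 for Cybb, -2.75 for Cd163, -2.57 for Knl1 and -2.54 for Mgl2.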

How the results depend on the processing

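The number of genes called at day 11 was 1833 to 1908 with median-centred or quantile-normalised arrays and 1146 when only the 6 arrays were fitted. Fitting only the groups compared, the change against untreated skin gave 881 genes and the change against day 5 gave 5. Array weights gave 2099 genes at day 5 and 234 for the change against day 5. Leaving out 1 replicate gave 1402 to 1731 genes at day 11, 2981 to 3220 in untreated skin, 876 to 1038 at day 5, 1066 to 1548 for the change against untreated skin and 36 to 123 for the change against day 5. Fitting only the 6 arrays also left 7 lower maturation genes, 9 lower sensing genes, 4 lower regulatory genes, 3 lower interferon-stimulated genes, 5 lower integrin and adhesion genes, 2 lower inflammatory genes and 3 higher glycolysis genes. The cause of these shifts was not tested. For the change against untreated skin, the median of all genes was 0.0561, and 0.177 after median-centring.

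Of 343 genes followed at day 11, 211 kept direction and call in every alternative. Reversals were limited to genes that did not pass the test. H2-Ab1 was -0.0023 after quantile normalisation, -0.0184 with array weights, -0.0075 without Langerhans cell replicate 1, and -0.0264 and -0.0163 without CD11b DC replicates 1 and 2. Myd88 was -0.0389 with array weights, Il23a -0.0919 and Top2a 0.1154 without Langerhans cell replicate 3, and Flt3 0.0117 without CD11b DC replicate 1. Over the replicates left out in turn, H2-Ab1 ranged from -0.0264 to 0.0979, Il23a from -0.0919 to 0.1962, Top2a from -0.3403 to 0.1154 and Flt3 from -0.2671 to 0.0117. Dapl1 lost its call against untreated skin in 6 settings.

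Deviations of same-numbered samples at day 11 correlated at 0.0707, 0.108 and -0.0112. Those of differently numbered samples correlated at -0.0967 to 0.0667. Whether the numbers pair the samples is not given, and 3 arrays per group cannot decide it. With the replicate block the counts were 1975 at day 11, 3218 in untreated skin, 1313 at day 5, 1493 for the change against untreated skin and 94 for that against day 5.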

Other observations

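The arrays also carry probe sets for miRNA genes, which lie outside the gene lists. Of 145 tested, 2 passed limma's test at day 11 (against 11.8% of all genes), and both were chosen for mention after their values were seen. Mir146b read 3.90, 3.59 and 3.79 in Langerhans cells and 4.34, 4.36 and 5.26 in CD11b DC (-0.90 ± 0.26, adjusted p = 0.0162), and Mir383 differed by -0.51 (adjusted p = 0.0273). The Langerhans cell values of Mir146b lay at or just above the floor. The Mir146b probe set does not separate the arms of the hairpin. The mature arms in RefSeq (GRCm38.p6, plus strand) are given 5′ to 3′ with the seed, bases 2 to 8, in capitals, at chr19:46342790-46342811 and chr19:46342828-46342849.
mmu-miR-146b-5p: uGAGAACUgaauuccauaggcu
mmu-miR-146b-3p: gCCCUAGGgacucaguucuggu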
